A study of Sus scrofa with 59 samples.

Results

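The genes described here encode 7 mitochondrial enzymes of fatty acid oxidation that act after the acyl-CoA dehydrogenases: HADHA, HADHB, HADH, ECHS1, ACAA2, ECI1 and DECR1. They were chosen by name, through the gene symbols of the array's annotation, out of 6765 genes with a symbol on the array. All 7 were measured, by 9 probe sets, because HADHB had 3 probe sets and the other genes had 1 each. All 9 probe sets passed the filter on low values, which kept the 12000 probe sets (4928 genes) whose mean over all pigs was at or above the median of 6.27 log2.

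Total RNA came from the longissimus dorsi, the long muscle of the back, of 59 pigs, all of the cross LD/LW x Duroc. The pigs were 170 days old, had been raised together with free access to feed, and gave 1 muscle sample and 1 array each. Muscle was taken at slaughter and frozen in liquid nitrogen. The study set out to relate gene expression early after death to carcass composition and meat quality, but trait values per pig were not analysed here. The labels describe a random choice of piglets and also a selection of animals by those traits, and they give neither the sex of a pig nor an array batch. All 59 pigs therefore formed 1 group, and the only comparisons possible were relations between genes across pigs. The pig numbers below come from the labels and only name the animals. A whole muscle sample holds several cell types, so a larger share of cells of a type and more RNA per cell cannot be told apart.

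Mitochondria break fatty acids down in a repeated cycle. An acyl-CoA dehydrogenase first makes a double bond, a hydratase adds water to it, a hydroxyacyl-CoA dehydrogenase oxidises the alcohol, and a thiolase releases acetyl-CoA and a shortened acyl chain. For long chains the last steps are carried out by the mitochondrial trifunctional protein, whose alpha subunit (HADHA) is a hydratase and dehydrogenase and whose beta subunit (HADHB) is the thiolase. For shorter chains they are carried out by separate enzymes, the hydratase ECHS1, the dehydrogenase HADH and the thiolase ACAA2, while the isomerase ECI1 and the reductase DECR1 prepare the double bonds of unsaturated chains. Oxidative muscle fibres, rich in mitochondria, are known for high activity of this pathway.

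Values were similar between arrays, while the measure of RNA integrity was less even. GCRMA includes quantile normalisation, which brings array medians together, so the medians do not show array quality. Log2 values lay between 2.39 and 15.04, array medians between 6.23 and 6.30, and r between arrays was at least 0.969 and at most 0.995. All 7 measured markers of skeletal muscle, CKM, MYH2, TNNT3, TNNC2, DES, TTN and MYLPF, were bright, with medians from 12.94 to 14.79 log2. The difference between 3-prime and 5-prime control probe sets of ACTB and GAPDH, a measure of RNA integrity and labelling, ran from 0.81 to 1.57 log2 with a median of 1.00. Pigs 41 (1.57) and 38 (1.37) had the highest values. The labels do not say how the values were scaled beyond naming GCRMA. Levels of different probe sets depend on the probes, so each gene was compared only with itself across pigs.

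Both subunits of the trifunctional protein varied more between pigs than most genes. HADHA ran from 10.31 log2 in pig 44 through a median of 10.87 to 11.69 in pig 72, a 2.61-fold range, with an SD of 0.25 (n = 59). The HADHB probe set with the highest mean, which stands for the gene below, ran from 10.90 in pig 46 through 11.48 to 12.40 in pig 72, with an SD of 0.27. The SD was smaller than that of HADHA in 69.4% of tested genes and smaller than that of HADHB in 74.9%, the median SD of tested genes being 0.20. Pig 72 stood above all other pigs in both subunits, and pig 21 came next in both, at 11.34 and 12.18. HADHA and HADHB are also neighbours in the order of protein-coding genes in the RefSeq annotation of the pig genome, and no other pair of the 7 genes is.

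The separate hydratase and dehydrogenase for shorter chains varied least. ECHS1 ran from 11.22 log2 in pig 9 through a median of 11.45 to 11.85 in pig 40, a 1.55-fold range, with an SD of 0.14. Only 16.3% of tested genes had a smaller SD than ECHS1. HADH ran from 11.19 in pig 36 through 11.80 to 12.39 in pig 72, with an SD of 0.17, and 33.6% of tested genes had a smaller SD. HADH lay in a narrow band in most pigs, with quartiles of 11.71 and 11.87, and its range was set by pigs 36 and 72 on the opposite sides.

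The thiolase ACAA2 and the enzymes for unsaturated chains varied about as much as HADHB. ACAA2 ran from 9.77 log2 in pig 36 through a median of 10.25 to 11.11 in pig 72, with an SD of 0.26. ECI1 ran from 9.75 in pig 70 through 10.28 to 11.48 in pig 72, a 3.32-fold range, with an SD of 0.31, and the next pig, 31, was at 10.83. DECR1 ran from 9.21 in pig 37 through 9.89 to 10.61 in pig 21, with an SD of 0.30. Their SDs exceeded those of 72.6%, 81.0% and 79.4% of tested genes, in that order. In ECI1 pig 72 stood clear of all others, while in DECR1 pigs 21 and 72 were close together, at 10.61 and 10.53.

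**Figure D1:**
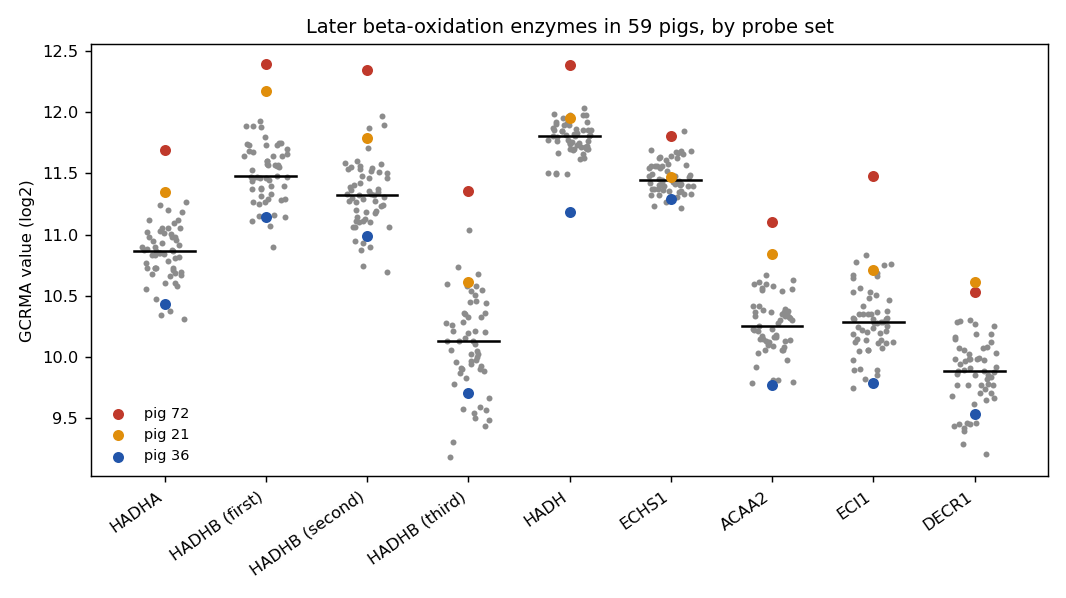
GCRMA values (log2, vertical axis) of the 9 probe sets of the 7 enzymes in the 59 pigs, 1 point per pig, with the median as a black bar. Pig 72 (red) is the highest in 7 of the 9 probe sets, pig 21 (orange) is high in most of them, and pig 36 (blue) lies low, furthest in HADH. Heights of different probe sets are not comparable.

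The same animals tended to be high or low across the 7 enzymes. Pig 72 was among the 5 highest pigs for 7 of 7 enzymes, and its mean distance above the average over the enzymes was 3.10 SD. Pig 21 had the next highest mean, 1.61 SD, with 6 of the 7 enzymes above their mean and ECHS1 at -0.041 SD. Pig 36 had the lowest mean, -1.82 SD, and was among the 5 lowest for 6 of the 7. In 9 pigs all 7 enzymes were above their mean, in 7 pigs all were below, and in 35 of the 59 pigs 6 or 7 were on the same side. On the array of pig 72 the mean 3-prime to 5-prime difference was 1.00 log2 and the median 6.27 log2. Of the parts of that difference, ACTB was at 1.98 log2, within the range of 1.57 to 2.91, while GAPDH was at 0.026 log2, the lowest of the 59 arrays (next lowest 0.041, median 0.093, highest 0.243). Because this animal lies far from the others, some results below are also given without it. Its omission was chosen after its values had been seen. Calls without it were made for enzyme pairs, for enzymes on gene list scores and for listed genes on enzymes, and changed calls or counts are given. No calls without pig 72 are given for differences between slopes or for correlations with another measure held fixed. The same holds for the other HADHB probe sets and for the slopes of other genes on the scores.

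The enzymes varied together across pigs, with lower correlations for ECHS1. The correlation between pairs of enzymes was tested for all 21 pairs with two-sided permutation tests of 100000 resamples and Benjamini-Hochberg adjustment over the 21. The median Pearson r of the pairs was 0.617, against a median of 0.0062 over all pairs of tested genes, and r was above 0.5 in 12 of the 21 pairs (57.1%) against 2.89% of all pairs. All 15 pairs without ECHS1 passed, with r from 0.420 to 0.814. Of the 6 pairs with ECHS1, 4 passed, with r from 0.217 to 0.490 over the 6. By Spearman's rho 17 of the 21 pairs passed, and without pig 72 also 17.

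The closest pair was the thiolase ACAA2 with the reductase DECR1. Their r was 0.814 and rho 0.759 over the 59 pigs, with an adjusted permutation p of 1.75e-05 for r, the raw p of 1e-05 being the smallest that 100000 resamples can give. Leaving out the pigs farthest from the median of ACAA2, 72 and 21, gave an r of 0.771. The difference between the log2 values of ACAA2 and DECR1 had an SD of 0.17, smaller than the SD of either gene. Both genes had an r of 0.31 with the 3-prime to 5-prime difference, which missed the threshold (adjusted permutation p = 0.0534 for each, 9 probe sets tested), and rho was 0.297 and 0.257. With that difference held fixed, 19 of the 21 enzyme pairs still passed.

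The subunits of the trifunctional protein were correlated too, though less closely. HADHA and HADHB had an r of 0.689 and a rho of 0.583 (adjusted permutation p = 1.75e-05 for r), and r was 0.590 without pigs 72 and 44 and 0.617 without pig 72. The difference between HADHA and HADHB had an SD of 0.21. HADHA was about as closely correlated with HADH (r = 0.675, rho = 0.618), the other dehydrogenase, and with ECI1 (r = 0.623, rho = 0.473). Its correlations with ACAA2 (r = 0.487, rho = 0.361) and DECR1 (r = 0.420, rho = 0.315) were weaker, with adjusted permutation p-values of 0.000223 and 0.00133 for r, and that of HADH with DECR1 was similar (r = 0.480, rho = 0.410). HADHB, in contrast, had an r of 0.723 with ACAA2, 0.743 with ECI1 and 0.704 with DECR1. Whether these r values of HADHA and HADHB differ from each other was not tested.

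The isomerase ECI1 lay nearest the common pattern and ECHS1 furthest from it. The r of each enzyme with the mean of the other 6 was 0.847 for ECI1, 0.794 for HADHB, 0.777 for ACAA2, 0.763 for HADH, 0.684 for DECR1, 0.664 for HADHA and 0.406 for ECHS1. ECHS1 was correlated with ECI1 (r = 0.490, rho = 0.383, adjusted permutation p = 9.69e-05) and with HADH (r = 0.484, rho = 0.452, adjusted permutation p = 0.000182). Its correlation with HADHB had an r of 0.247 (rho = 0.194, adjusted permutation p = 0.0610) and that with DECR1 an r of 0.217 (rho = 0.152, adjusted permutation p = 0.0982). Both of these passed when the arrays were re-centred on their medians (r = 0.277 and 0.264) or quantile-normalised again (r = 0.293 and 0.314). The pairs of ECHS1 with HADHA (r = 0.293, rho = 0.234) and with ACAA2 (r = 0.311, rho = 0.220) passed, but without pig 72 their r was 0.184 and 0.209 and neither passed. HADHA with ECHS1 also did not pass without pig 36 (r = 0.264, adjusted permutation p = 0.0505), and HADHB with ECHS1 passed when any 1 of 10 pigs was left out (r from 0.261 to 0.292).

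**Figure D2:**
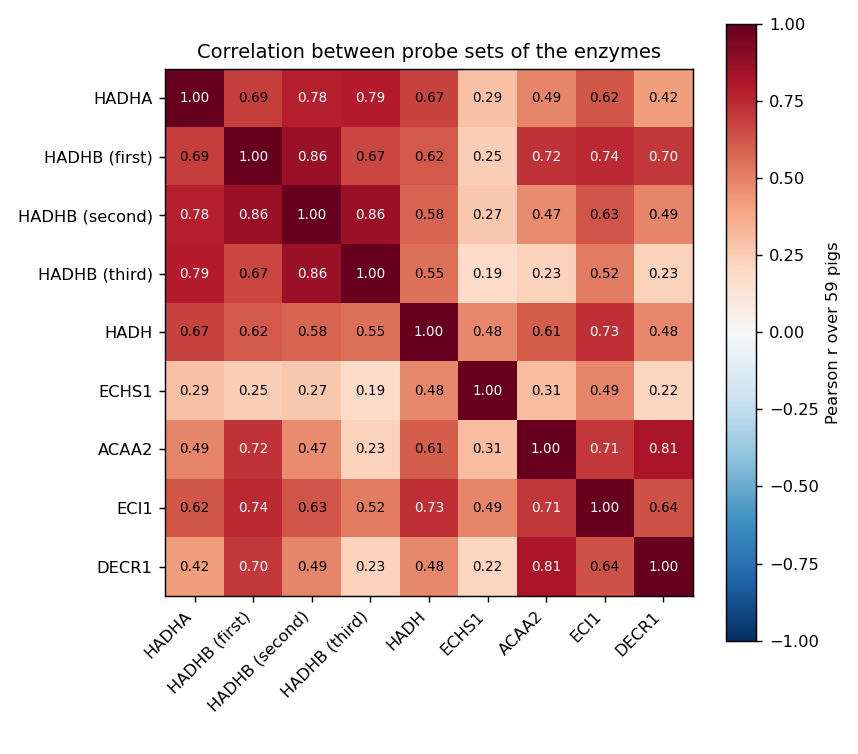
Pearson r over the 59 pigs between the 9 probe sets of the 7 enzymes, from blue (negative) through white to red (positive), with r written in each cell. The row of ECHS1 is pale throughout (r up to 0.49), and the third HADHB probe set is red against HADHA (0.79) but pale against ACAA2 and DECR1 (0.23 each).

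**Figure D3:**
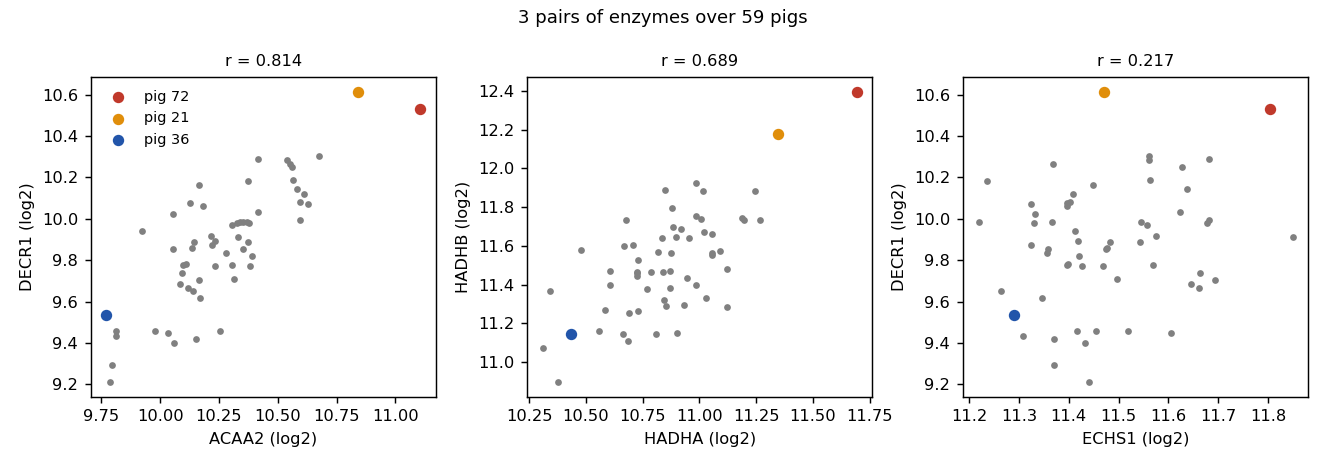
Log2 values of a pair of enzymes in each panel, 1 point per pig (n = 59), with pigs 72, 21 and 36 coloured. ACAA2 and DECR1 follow each other closely (r = 0.814), HADHA and HADHB less so (r = 0.689), and ECHS1 and DECR1 spread without a clear slope (r = 0.217).

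The answer for HADHB depended on the probe set. Ordered by their means, the second probe set ran from 10.70 through a median of 11.33 to 12.35 log2 (SD 0.30) and the third from 9.19 through 10.13 to 11.36 (SD 0.42). Pig 72 was highest in all 3. The first and second probe sets had an r of 0.860 (rho = 0.854), the second and the third 0.864 (rho = 0.834), and the first and the third 0.668 (rho = 0.642). Against HADHA, r was 0.689, 0.781 and 0.786 from the first to the third probe set. Against ACAA2 it was 0.723, 0.473 and 0.227, and against DECR1 0.704, 0.487 and 0.232. The third probe set thus followed its partner subunit but did not pass with ACAA2 (adjusted permutation p = 0.0926) or DECR1 (adjusted permutation p = 0.0907), and with it 17 of the 21 pairs passed. The third probe set was also the only one of the 9 whose correlation with the 3-prime to 5-prime difference passed (r = -0.394, rho = -0.362, adjusted permutation p = 0.0209), while the first had an r of 0.190 and the second 0.026. The part of RNA integrity in the disagreement of the probe sets was not tested.

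The correlation among the enzymes was compared with that of 2 wider programmes, chosen after the values had been seen. A score is the mean of the standardised log2 values of a list's genes, scaled to an SD of 1. With the score of 17 TCA cycle genes held fixed, the median r of the 21 pairs was 0.160 and 9 pairs passed. ACAA2 with DECR1 kept a partial r of 0.709 (adjusted permutation p = 0.00021) and HADHB with DECR1 one of 0.507 (adjusted permutation p = 0.00042). The subunits HADHA and HADHB had a partial r of 0.216 (adjusted permutation p = 0.214), and no pair with HADHA passed. With the score of 7 slow fibre genes (contractile genes and the calcium pump gene ATP2A2) held fixed instead, the median r was 0.445 and 15 pairs passed.

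For each enzyme, the 4 tested genes with the highest r over the 59 pigs were listed. HADHA was closest to ACADVL (r = 0.795), the very long-chain acyl-CoA dehydrogenase, followed by PRDX2 (0.762), MDH2 (0.745) and GOT2 (0.742), which encode a peroxiredoxin and mitochondrial enzymes of the TCA cycle and the malate-aspartate shuttle. HADHB was closest to respiratory chain genes, COX5B (r = 0.807) and NDUFV1 (0.800), then to LOC100522678 (0.778) and HSDL2 (0.767). HADH was closest to COQ9 (r = 0.818), needed for coenzyme Q synthesis, and to IDH2 (0.804), a mitochondrial isocitrate dehydrogenase, then to NDUFS1 (0.742) and the citrate carrier SLC25A1 (0.737).

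ACAA2 was closest to ACADSB (r = 0.825), an acyl-CoA dehydrogenase for short branched chains, then to MRPL39 (0.816), a mitochondrial ribosomal protein, to DECR1 (0.814) and to SORD (0.765). DECR1 had ACAA2 in turn as its closest gene, followed by LOC100516480 (r = 0.750), PTGR2 (0.746) and COX6C (0.737). ECI1 was closest to NDUFS7 (r = 0.774) and NDUFV1 (0.770) of respiratory complex I, then to IDH2 (0.761) and GSTK1 (0.751). ECHS1 had looser neighbours: ATP5E (r = 0.667), a subunit of ATP synthase, ADHFE1 (0.614), FITM1 (0.537) and LYRM1 (0.529). ACAA2 and DECR1 were the only enzymes of the 7 to appear in such a list. All 28 listed relations passed (limma adjusted p from 3.08e-11 to 0.0201), with rho from 0.522 to 0.764 and r from 0.522 to 0.802 without pig 72. Because the genes were picked by their r in these same pigs, passing was close to fixed by the choice and adds no support.

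The genes that act before the 7 enzymes were then taken from fixed lists, and the slope of every probe set on each enzyme was fitted with limma. Of 7 genes for fatty acid uptake, activation and mitochondrial import, 5 had a positive slope past the threshold with HADHA, 4 each with HADHB, HADH and ACAA2, 3 with ECI1, and 0 with ECHS1 and DECR1. The share of all tested probe sets with a positive slope past the threshold was 4.18% for HADHA, 4.53% for HADHB, 8.03% for HADH, 8.58% for ACAA2, 4.15% for ECI1, 0.217% for ECHS1 and 9.1% for DECR1. Over all enzymes, 20 of 49 gene-enzyme pairs passed, all positive, and 13 passed without pig 72. Lost without that pig were CPT1B, FABP3 and SLC27A1 with ACAA2, and FABP3 and SLC27A1 with ECI1. ACSL1 and FABP3 were lost with HADH, and ACSL1 with HADHA. CPT1B, the muscle carnitine palmitoyltransferase at the entry to mitochondria, had an r of 0.720 with HADHA, 0.719 with HADH and 0.664 with ECI1, and these passed with and without pig 72. FABP3, the fatty acid binding protein of heart and muscle, was closest to HADHB (r = 0.708, limma adjusted p = 1.69e-07). SLC25A20, the carnitine carrier, passed with HADHA only (r = 0.621, limma adjusted p = 6.87e-05). Over all pigs, CPT2 and the liver-type CPT1A passed with none, with a mean r over the 7 enzymes of 0.055 and 0.023. The r of CPT1A with HADHA was 0.330 over all pigs (limma adjusted p = 0.111). Without pig 72 it was 0.4125 and this pair passed (limma adjusted p = 0.0388), while CPT2 still passed with none.

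The acyl-CoA dehydrogenases and the electron transfer flavoprotein, which carry out the first oxidation of each cycle and pass on its electrons, followed the later enzymes most often. Of 8 such genes, 8 passed with ECI1, 7 each with HADHA, HADHB and HADH, 6 with ACAA2, 5 with DECR1 and 1, ACAD9, with ECHS1. In total 41 of 56 gene-enzyme pairs passed, all positive, and 32 without pig 72. ACADL, ACADM, ETFA and ETFB no longer passed with HADHA without that pig (limma adjusted p from 0.0682 to 0.112). Also lost were ACADL and ETFDH with ECI1, ACADS with HADHB and DECR1, and ETFDH with HADH. Among these 8 genes ETFA, a subunit of the flavoprotein, had the highest mean r over the 7 enzymes, 0.565, with values from 0.247 (ECHS1) to 0.722 (DECR1). ACADS, ETFB and ACADM had a mean r of 0.525, 0.519 and 0.510. The dehydrogenases for longer chains differed in their partners: ACADVL had an r of 0.795 with HADHA but 0.132 with DECR1, and ACADL had one of 0.728 with DECR1 and 0.427 with HADHA. This contrast was seen in the values and was not itself tested.

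Other oxidation enzymes and known regulators were less regular. Of 6 enzymes of peroxisomal, auxiliary or alternative oxidation, 4 passed with ECI1, 3 each with ACAA2 and DECR1, 2 with HADH and 1 each with HADHA, HADHB and ECHS1, together 15 of 42 pairs and 12 without pig 72. ECH1, a dienoyl-CoA isomerase, passed with every enzyme but ECHS1 (mean r = 0.566, from 0.363 with ECHS1 to 0.690 with HADHA). HSD17B10, a mitochondrial dehydrogenase, passed with 5 enzymes, ACAA2, DECR1, ECI1, HADH and ECHS1 (with ECHS1 r = 0.488, limma adjusted p = 0.0468). Without pig 72 it passed with ACAA2 and DECR1, and no longer with ECI1 (r = 0.399, limma adjusted p = 0.0701), HADH (r = 0.303, limma adjusted p = 0.0946) or ECHS1 (r = 0.408, limma adjusted p = 0.0820). DECR2, the peroxisomal counterpart of DECR1, passed with none (r from -0.081 to 0.010).

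Of the 10 regulators and targets of fatty acid oxidation on the array, PPARA and PPARG did not pass the filter on dim probe sets, and with the other 8 genes 2 of 56 pairs passed. UCP3, a mitochondrial carrier induced by fatty acids, rose with HADHA (r = 0.436, limma adjusted p = 0.0142), and NCOR1, a nuclear corepressor, fell with HADHA (r = -0.417, limma adjusted p = 0.0267), against 1.22% of all probe sets with a negative slope on HADHA past the threshold. PPARGC1A, the coactivator known for driving mitochondrial biogenesis, varied widely, from 7.47 through a median of 8.59 to 11.17 log2, but its r with the 7 enzymes lay between -0.151 and 0.311 and none passed. PPARD and PDK4 passed with none either, with a mean r of 0.063 and 0.059.

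**Figure D4:**
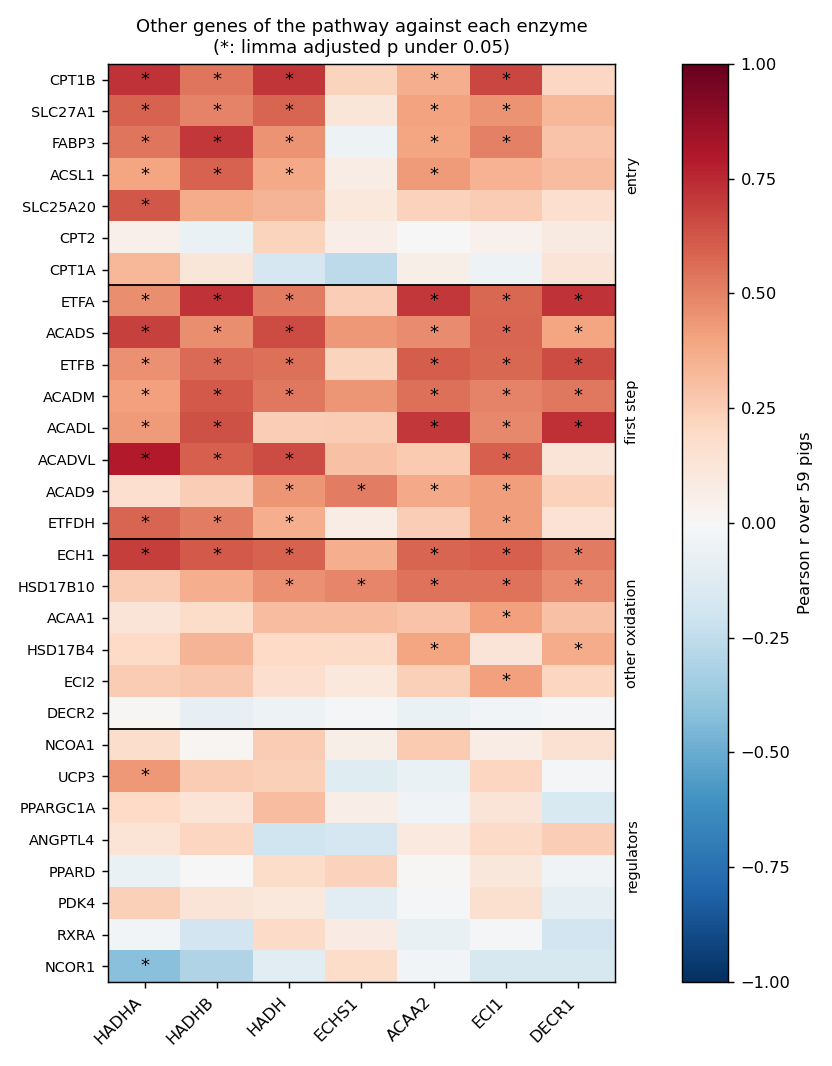
Pearson r over 59 pigs between 29 other genes of fatty acid oxidation (rows, grouped by list) and the 7 enzymes (columns), from blue (negative) to red (positive). Stars mark a limma adjusted p under 0.05. The first-step block is red in most columns, the regulators are pale with 2 stars, and the ECHS1 column holds 2 stars in all.

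The 7 enzymes were next set against scores of whole gene lists. The slope of every tested probe set per SD of a score was fitted with limma over the 59 pigs, without the genes that make up the score, with adjustment over all probe sets tested, so an enzyme is said to follow a score when its adjusted p was under 0.05. Slopes are in log2, so at the same r a gene with a smaller SD has a smaller slope. Shares of probe sets are over all 59 pigs unless stated, and none was computed without pig 72. All 7 enzymes followed the acyl-CoA dehydrogenase score, against 5.1% of all probe sets with a positive slope past the threshold. The median slope of the members was 0.20 log2 per SD and that of all tested genes -0.0010. ECI1 had the steepest slope, 0.24 ± 0.024 (SE), followed by HADHB at 0.23 ± 0.020. ECHS1 had the shallowest, 0.067 ± 0.017 (limma adjusted p = 0.00664), and without pig 72 it was 0.052 (limma adjusted p = 0.0572), which left 6 of 7.

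With the fatty acid entry score, 6 of 7 enzymes passed, all positive, against 4.67% of probe sets. HADHA had a slope of 0.20 ± 0.020 and HADHB one of 0.19 ± 0.026, while HADH (0.11 ± 0.018), ACAA2 (0.12 ± 0.030) and DECR1 (0.11 ± 0.036) were lower and ECI1 lay between, at 0.17 ± 0.033. ECHS1 had a slope of 0.0098 ± 0.019 (limma adjusted p = 0.813). By r with the score, HADH (0.632) lay above ECI1 (0.556), ACAA2 (0.468) and DECR1 (0.379). Differences between slopes of the members were tested by permutation after the slopes had been seen, over 189 differences in all, with adjustment over them. The slope of HADHA exceeded that of HADH by 0.10 ± 0.021 (adjusted permutation p = 0.000344) and that of HADHB exceeded that of ACAA2 by 0.066 ± 0.025 (adjusted permutation p = 0.0378). Without pig 72, ACAA2 (0.090, limma adjusted p = 0.0674) and DECR1 (0.086, limma adjusted p = 0.171) no longer passed, which left 4 of 7. DECR1 also lost its call without any 1 of 8 other pigs, 21, 29, 31, 36, 42, 46, 64 and 74.

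The TCA cycle score and the respiratory chain score gave the same count. Of the 7 enzymes, 6 followed the TCA cycle score, against 5.75% of probe sets, and 6 followed the oxidative phosphorylation score, against 7.6%, all with positive slopes, and both counts were also 6 without pig 72. With the TCA cycle score the slopes that passed ran from 0.13 ± 0.014 (HADH) to 0.23 ± 0.026 (ECI1). The r with this score was highest for HADH, 0.810, against 0.755 for ECI1. ECHS1 had a slope of 0.041 ± 0.018 (limma adjusted p = 0.169), which passed only when arrays were re-centred on their medians (0.059, limma adjusted p = 0.0223). With the oxidative phosphorylation score HADHB was steepest, 0.20 ± 0.024, and HADHA was lower, 0.13 ± 0.028, and without the 2 pigs of the most extreme scores HADHA did not pass (0.083, limma adjusted p = 0.0520). That difference between the subunits passed, at -0.071 for HADHA minus HADHB (adjusted permutation p = 0.0294), and was tested with the first HADHB probe set only. From the first to the third HADHB probe set, r with the score was 0.750, 0.683 and 0.508, against 0.532 for HADHA.

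The slow fibre score, made from contractile genes, the calcium pump gene ATP2A2 and no metabolic ones, was followed by 6 of 7 enzymes, against 2.94% of probe sets. ECI1 (0.20 ± 0.031), DECR1 (0.18 ± 0.031), ACAA2 (0.17 ± 0.027) and HADHB (0.16 ± 0.029) had the steeper slopes, and these passed whichever single pig was left out. HADHA had a slope of 0.097 ± 0.030 (limma adjusted p = 0.0477) that was lost without any 1 of 33 pigs and was 0.055 without pig 72 (limma adjusted p = 0.503). HADH, at 0.089 ± 0.019, was lost without pig 72 alone (0.061, limma adjusted p = 0.0930), so 4 of 7 passed without this animal. The slope of HADHA was below that of ECI1 by 0.10 ± 0.030 (difference -0.10, adjusted permutation p = 0.00670). The slope of HADH was below that of ECI1 too (difference -0.11, adjusted permutation p = 0.000344), but HADH also had the smaller SD. The r with the score was 0.649 for ECI1, 0.536 for HADH and 0.387 for HADHA. The third HADHB probe set had a slope of 0.14 ± 0.051 that did not pass (limma adjusted p = 0.121).

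ECHS1 had lower slopes than most of the other enzymes on the fatty acid entry and slow fibre scores. For the fatty acid entry score its slope was below that of each of the other 6 enzymes, with differences from 0.095 ± 0.017 against HADH to 0.20 ± 0.021 against HADHA, and each passed. For the slow fibre score it was below HADHB, HADH, ACAA2, ECI1 and DECR1 with a passed test, but not below HADHA (difference 0.066 ± 0.032, adjusted permutation p = 0.117). Its SD was also the smallest of the 7 genes, and relative to that SD its r with the fatty acid entry score was 0.070, against values from 0.379 (DECR1) to 0.814 (HADHA) in the other 6. On other scores its r was higher, 0.477 with the acyl-CoA dehydrogenase score and 0.292 with the TCA cycle score. Of the 189 differences, 58 passed.

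Over all 59 pigs no enzyme passed on the glycolysis or adipocyte score. With limma 0 of 7 enzymes followed the glycolysis score, although 31.1% of all probe sets did, and 0 of 7 had an unadjusted p under 0.05. Without pig 72, whose glycolysis score of -3.33 was the lowest, HADHA passed with a positive slope of 0.078 ± 0.028 (limma adjusted p = 0.0315). The slopes of the other 6 enzymes were negative with all pigs, from -0.0046 (HADH) to -0.058 (ECI1), and positive without pig 72, from 0.0041 (HADHB) to 0.035 (HADH), and none of these passed. For the adipocyte score (4 of 9 markers passed the filter) limma gave 0 of 7, against 15.8% of probe sets, and 1 of 7, ECI1, had an unadjusted p under 0.05 (slope 0.077 ± 0.039).

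The heat shock score of 11 chaperone genes had negative slopes past the threshold for 2 of 7 enzymes, DECR1 (-0.16 ± 0.033, limma adjusted p = 7.15e-05) and ACAA2 (-0.11 ± 0.031, limma adjusted p = 0.00469). Of all probe sets 22.2% had a negative and 23.1% a positive slope past the threshold, so the share of the enzymes was near the background. Without pig 72, or after quantile normalisation was repeated, 5 of 7 passed, with HADHB, HADH and ECI1 added. These 3 passed when any 1 of 9, 13 and 7 pigs, respectively, was left out, pig 72 among them. After repeated quantile normalisation 45.7% of probe sets passed in either direction, and no share was computed without pig 72. The result for HADHB is that of its first probe set. Over all pigs the slope was -0.0098 in the second (limma adjusted p = 0.856) and 0.043 in the third (limma adjusted p = 0.526). ACAA2 did not pass with the first principal component of the arrays as a covariate (-0.13, limma adjusted p = 0.180). The slope of DECR1 was lower than that of HADHA (difference 0.12 ± 0.036, adjusted permutation p = 0.00940), HADHB, HADH and ECHS1, while the differences from ACAA2 (0.051 ± 0.022, adjusted permutation p = 0.0673) and ECI1 (0.072 ± 0.033, adjusted permutation p = 0.0904) did not pass.

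With limma 0 of 7 enzymes followed the immediate early score of 7 rapidly induced transcription factors and related genes, against 27.1% of probe sets, and 3 (HADH, ACAA2 and DECR1) had an unadjusted p under 0.05, with negative slopes. Without pig 72, 4 of 7 passed, all negative: HADH (-0.072, limma adjusted p = 0.00203), ACAA2 (-0.10), ECI1 (-0.095) and DECR1 (-0.11, limma adjusted p = 0.0198). The share of 27.1% is over all pigs, and no share was computed without pig 72, so this count has no background to be compared with. Pig 36, the animal lowest over the 7 enzymes, had the highest immediate early and heat shock scores, and pig 72 had an immediate early score of 1.86.

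**Figure D5:**
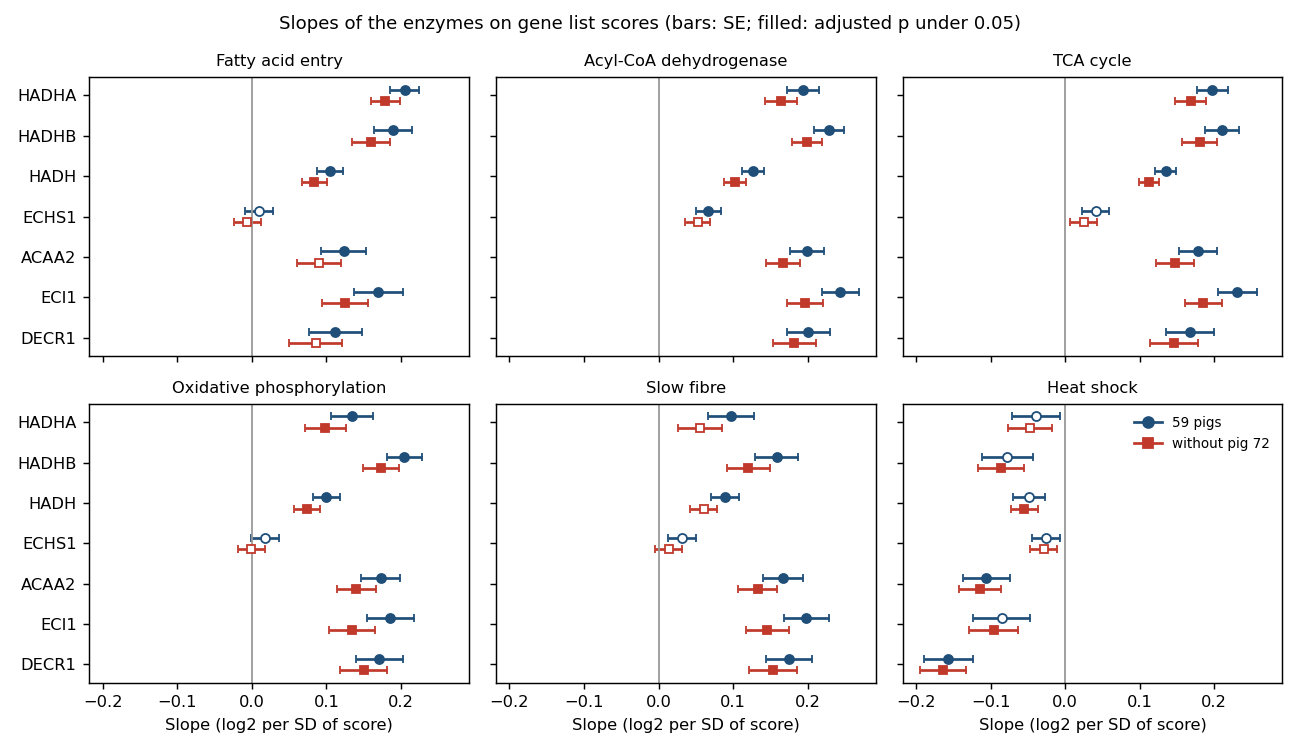
Slopes of the 7 enzymes (log2 per SD of the score, horizontal axis) on 6 gene list scores, with SE bars, over 59 pigs (blue circles) and without pig 72 (red squares). Filled symbols have a limma adjusted p under 0.05. ECHS1 lies nearest 0 in the panels of the fatty acid entry, acyl-CoA dehydrogenase, TCA cycle, oxidative phosphorylation and slow fibre scores, and the heat shock slopes drawn are all below 0. HADHB is drawn by its first probe set only.

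Among the markers of other cell types, only the endothelial score was followed by any of the 7 enzymes, and not without pig 72. The endothelial score (5 of 8 markers passed the filter, mean level of these 5 from 7.59 to 8.47 log2) was followed by 1 of 7, HADH (0.073 ± 0.020, limma adjusted p = 0.0276), against 2.35% of probe sets with a positive slope past the threshold. The slopes of the other 6 ran from 0.037 ± 0.018 (ECHS1) to 0.11 ± 0.037 (ECI1, limma adjusted p = 0.0824). All 7 had an unadjusted limma p under 0.05, but no share of all probe sets was computed at that threshold. Pig 72 had the highest endothelial score, 3.21, and without it the slope of HADH was 0.044 (limma adjusted p = 0.447) and 0 of 7 passed. The other 6 slopes then ran from 0.021 ± 0.018 (ECHS1) to 0.055 ± 0.034 (ECI1). With limma 0 of 7 enzymes followed the macrophage score (6 of 12 markers, 7.12% of probe sets in either direction), the smooth muscle score (5 of 6, 3.7%) or the fibroblast score (3 of 6, 23.8%), and 0 of 7 had an unadjusted p under 0.05 in each. Pig 72 also had the highest fatty acid entry, acyl-CoA dehydrogenase, TCA cycle, oxidative phosphorylation and slow fibre scores. Whether its cell makeup has a part in its high enzyme values was not tested.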

How the data were processed

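For each array the deposited table lists 1 log2 value per probe set, which the authors made with GCRMA, per the submitters' processing notes. The version of GCRMA and the log base are not given in the sources used here, and log2 was read from the range of the values. GCRMA subtracts a background estimated from the probes' base composition, applies quantile normalisation and joins the probes of a set, which compresses differences of dim and of very bright probe sets. Of 24123 probe sets, 124 were controls, 10099 had 1 gene symbol, 198 several and 13826 none, and only those with 1 symbol were named. No genome positions or sequences are printed. Array values carry no count of molecules, so the number of arrays limits the precision.

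No 2 arrays held identical values. The 59 arrays were 1 group, and separate pigs were the replicates. Probe sets with a mean of at least 6.27 log2 were tested. A gene was represented by its tested probe set with the highest mean. Slopes were fitted with limma 3.58.1 (lmFit, eBayes) in R 4.3.3, with Benjamini-Hochberg adjustment over all probe sets tested and a threshold of 0.05, after the script was tested on simulated data. Pairs of members were tested with two-sided permutation tests (100000 resamples, Python 3.11.15, numpy 2.4.6, pandas 2.3.3, scipy 1.17.1, matplotlib 3.10.9). Named genes were all members, the 4 genes most correlated with each, up to 6 genes per pathway list by mean r, and those a count of 5 or fewer called for. Alternatives were re-centring, repeated quantile normalisation, no filter, means of probe sets, no extreme pigs, covariates and leaving out each pig. Members, lists and tests were chosen with earlier results of these data known.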

Additional observations from a re-analysis of the deposited data

How the results depend on the processing

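The count of members passed held within 1.5 times for the fatty acid entry, acyl-CoA dehydrogenase, TCA cycle, oxidative phosphorylation, slow fibre and adipocyte scores under every alternative run. Other counts moved. For the glycolysis score, 0 of 7 became 1 without the 2 extreme pigs (HADHA, positive), against 25.1% of probe sets in either direction. It became 2 with the first principal component as a covariate (ACAA2 and DECR1, negative), against 13.8% of probe sets in either direction. The range was 0 to 1 when each pig was left out. For the immediate early score the range over left-out pigs was 0 to 4. For the heat shock score, 2 became 5 after repeated quantile normalisation (45.7% of probe sets in either direction), with a range of 2 to 5 over left-out pigs. Of the 21 pairs, 9 passed with the TCA cycle score held fixed, against 19. The gene-enzyme pairs of the fatty acid entry list fell from 20 to 13 without pig 72. The mean level of HADHB was 11.51 log2 by its first probe set and 10.99 as the mean of its 3. In these cases the cause was not tested.

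The values that changed sign had not passed the threshold, except r of HADHA with ACAA2 (-0.0966), HADHA with DECR1 (-0.0493) and HADHB with HADH (-0.0188) with the TCA cycle score held fixed, none of which passed in that setting. The slope of ECHS1 was -0.0186 on the fatty acid entry score and -0.000443 on the oxidative phosphorylation score without the 2 extreme pigs, from -0.00626 to 0.0149 and from -0.000524 to 0.0238 over left-out pigs, and 0.0190 on the heat shock score with the first principal component as a covariate. On the immediate early score, the slope of HADHA was 0.0188 without the 2 extreme pigs and from -0.0413 to 0.00764 over left-out pigs, and that of HADHB was -0.00467 after re-centring, -0.00621 after repeated quantile normalisation and from -0.0293 to 0.0185 over left-out pigs. On the glycolysis score, slopes that were negative over all pigs turned positive without the 2 extreme pigs in HADHB (0.0173), HADH (0.0356), ACAA2 (0.00555), ECHS1 (0.00848), ECI1 (0.00591) and DECR1 (0.0196). After re-centring they did so in HADH (0.0422), ECHS1 (0.0231) and ECI1 (0.00127), and after repeated quantile normalisation in HADH (0.000626). Over left-out pigs these slopes ran from -0.0623 to 0.00414 in HADHB, -0.0241 to 0.0347 in HADH, -0.0585 to 0.00971 in ACAA2, -0.0191 to 0.00850 in ECHS1, -0.0768 to 0.0125 in ECI1 and -0.0478 to 0.00664 in DECR1, each positive value being that without pig 72. On the adipocyte score the slope of HADHA was -0.0150 with no filter on dim probe sets and from -0.00884 to 0.0251 over left-out pigs, and that of HADHB was -0.0124 with probe sets averaged. No paired analysis was possible because all pigs form 1 group and the pig numbers only name the animals. With 1 array per pig, spread between pigs and spread between arrays cannot be told apart.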

Other observations

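Of the other genes of fatty acid oxidation, those with a negative slope past the threshold on the heat shock score were ACADL (-0.12 ± 0.036, limma adjusted p = 0.00394) and ACADM (-0.057 ± 0.023, limma adjusted p = 0.0331) among 8 genes of the first step, and ACAA1 (-0.13 ± 0.030), ECH1 (-0.084 ± 0.021) and DECR2 (-0.070 ± 0.021) among 6 other oxidation enzymes. CPT2 (-0.086 ± 0.022) was the only 1 of 7 entry genes. Among the 8 regulators, PPARGC1A (0.31 ± 0.10, limma adjusted p = 0.0127) and PDK4 (0.14 ± 0.030), the kinase that inhibits pyruvate dehydrogenase, rose with the score, and the coactivator NCOA1 fell (-0.070 ± 0.025). Positive slopes past the threshold were found in 23.1% of all probe sets and negative ones in 22.2%.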
